A study of Mus musculus with 6 samples.

Results

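The glutathione peroxidases and catalase are enzymes that reduce peroxides. The set described here holds 8 genes, Gpx1, Gpx2, Gpx3, Gpx4, Gpx6, Gpx7, Gpx8 and Cat, of 16593 genes named on the array, and 11 of its 25697 probes. Every probe whose gene symbol in the platform annotation was one of these 8 was taken. The genes were chosen with results of this same contrast in view, so the values of Ad-MafG against Ad-Control below describe them and no test is drawn from them. Total RNA of whole liver was measured on single-colour Illumina bead arrays, 1 array per mouse, in wild-type C57BL/6 mice. One group of 3 mice received Ad-Control, which the labels also name Ad-CMV, and the other group of 3 received Ad-MafG, an adenovirus for overexpression of the small Maf transcription factor MafG. In both groups livers were taken on day 5 after a fast of 4 to 6 h. The mice of both groups thus carried an adenovirus, and no liver without virus was measured. The labels give neither the age of the mice nor the dose of virus.

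Glutathione peroxidases use glutathione to reduce hydrogen peroxide and organic hydroperoxides to water and alcohols. In the mouse Gpx1, Gpx2, Gpx3 and Gpx4 carry selenocysteine in the active site, whereas Gpx6, Gpx7 and Gpx8 carry cysteine there. Catalase, the product of Cat, is a heme enzyme of the peroxisome that breaks down hydrogen peroxide without glutathione. Liver is rich in catalase and in Gpx1. Small Maf proteins such as MafG have no transactivation domain of their own and bind DNA as homodimers or with partners that include Nrf2, whose dimers with small Maf proteins bind antioxidant response elements.

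The windows of 250 bases just before the annotated starts of 4 of these genes show which letters of such elements stand there. Gpx2, Gpx3 and Gpx4 are shown because they are described at length below, and Cat because its change depended on how arrays were scaled. The sequences are those of RefSeq, build GRCm38.p6, each read 5′ to 3′ on the strand of the gene, at chr12:76795555-76795804 (minus strand) for Gpx2, chr11:54902604-54902853 (plus strand) for Gpx3, chr10:80053315-80053564 (plus strand) for the start numbered 2 of 4 for Gpx4, and chr2:103485154-103485403 (minus strand) for Cat. Capitals mark the short Maf motif TGCTGA.
Gpx2: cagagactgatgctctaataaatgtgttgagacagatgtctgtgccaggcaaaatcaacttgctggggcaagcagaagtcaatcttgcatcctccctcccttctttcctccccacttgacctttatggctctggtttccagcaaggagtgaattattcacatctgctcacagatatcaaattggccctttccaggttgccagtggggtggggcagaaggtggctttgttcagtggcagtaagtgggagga
Gpx3: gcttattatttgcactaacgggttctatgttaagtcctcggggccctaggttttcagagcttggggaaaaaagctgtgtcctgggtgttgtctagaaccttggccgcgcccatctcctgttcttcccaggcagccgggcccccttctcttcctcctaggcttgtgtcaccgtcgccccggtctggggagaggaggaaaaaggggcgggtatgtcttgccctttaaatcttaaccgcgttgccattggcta
Gpx4: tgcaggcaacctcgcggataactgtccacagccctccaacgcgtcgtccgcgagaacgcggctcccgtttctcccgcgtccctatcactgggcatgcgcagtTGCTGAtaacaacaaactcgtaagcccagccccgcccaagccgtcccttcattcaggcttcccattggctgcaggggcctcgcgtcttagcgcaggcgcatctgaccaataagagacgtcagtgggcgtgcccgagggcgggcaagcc
Cat: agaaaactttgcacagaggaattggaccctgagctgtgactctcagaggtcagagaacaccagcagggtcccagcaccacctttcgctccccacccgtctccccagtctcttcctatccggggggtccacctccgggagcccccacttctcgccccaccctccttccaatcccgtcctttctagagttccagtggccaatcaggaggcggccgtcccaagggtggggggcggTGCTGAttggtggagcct
Of the windows of all 8 genes, 11 in number with the 4 starts of Gpx4, 0 held the antioxidant response element core TGACNNNGC on either strand. Among 32851 promoter windows of the same length, 10.2% held it. The short motif TGCTGA, searched on both strands, stood in 16.1% of those windows. It was found before the starts numbered 2 and 3 of Gpx4, where 1 site lies in both overlapping windows, and before Gpx6, Gpx8 and Cat. In Cat it lay 18 to 13 bases before the start, and in the start numbered 2 of Gpx4 148 to 143 bases before it. The windows of Gpx1, Gpx2, Gpx3 and Gpx7 held neither motif, nor did those of the starts numbered 1 and 4 of Gpx4. The Gpx4 window printed above is thus from a start that held the short motif. A match in these letters is a description of the sequence, and a missing one says nothing of sites elsewhere.

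Values per array are given as non-normalized signal, the mean bead intensity of a probe on a linear scale, and differences as log2 fold changes after background correction and quantile normalization. A probe counted as detected on an array where the authors' detection p-value was under 0.05. Between 12079 and 13042 probes per array were detected, and the median signal of all probes lay between 160.6 and 185.8. All 6 arrays lay on 1 slide. Of the 8827 genes that passed the detection filter, 875, or 9.91%, passed the threshold, an adjusted p of limma's test under 0.05. Of all genes tested, 6.29% passed it as higher in Ad-MafG livers and 3.63% as lower, and the median log2 fold change was −0.02. The higher genes made up 63.4% of the calls, against 75.3% with scaling of arrays to their median, 52.5% with scaling to the median of the detected probes and 94.6% without correction or normalization. The probe for Mafg was lower in the livers labelled Ad-MafG, with a log2 fold change of −0.54 (SE 0.11, n = 3 per group, adjusted p = 0.0341 by limma). With 1 array left out it passed the threshold only without Ad-Control 2, at −0.62, and ran from −0.62 to −0.45 over the 6 such refits. No source used here says where that probe lies on the transcript or whether RNA made from the virus holds its target, so it does not check the labels.

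Of the 8 genes, 7 were tested and Gpx6 did not pass the detection filter. The log2 fold changes of 4 of the 7, Gpx2, Gpx3, Gpx4 and Gpx7, passed the threshold, all as higher, and 0 passed it as lower. This count stands beside the 9.91% of all genes, but nothing is read from it, since the genes were chosen on this contrast. Gpx2 was detected on no Ad-Control array and met the detection filter only through the Ad-MafG arrays. Once tested it could hardly come out lower, so its call carries no weight. In 6 of the 7, all but Gpx1, every Ad-MafG array lay above every Ad-Control array on the normalized scale, which was so for 18.3% of all genes. Nothing is read from this either, since the genes were chosen on this contrast and the Gpx2 controls were undetected.

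**Figure D1:**
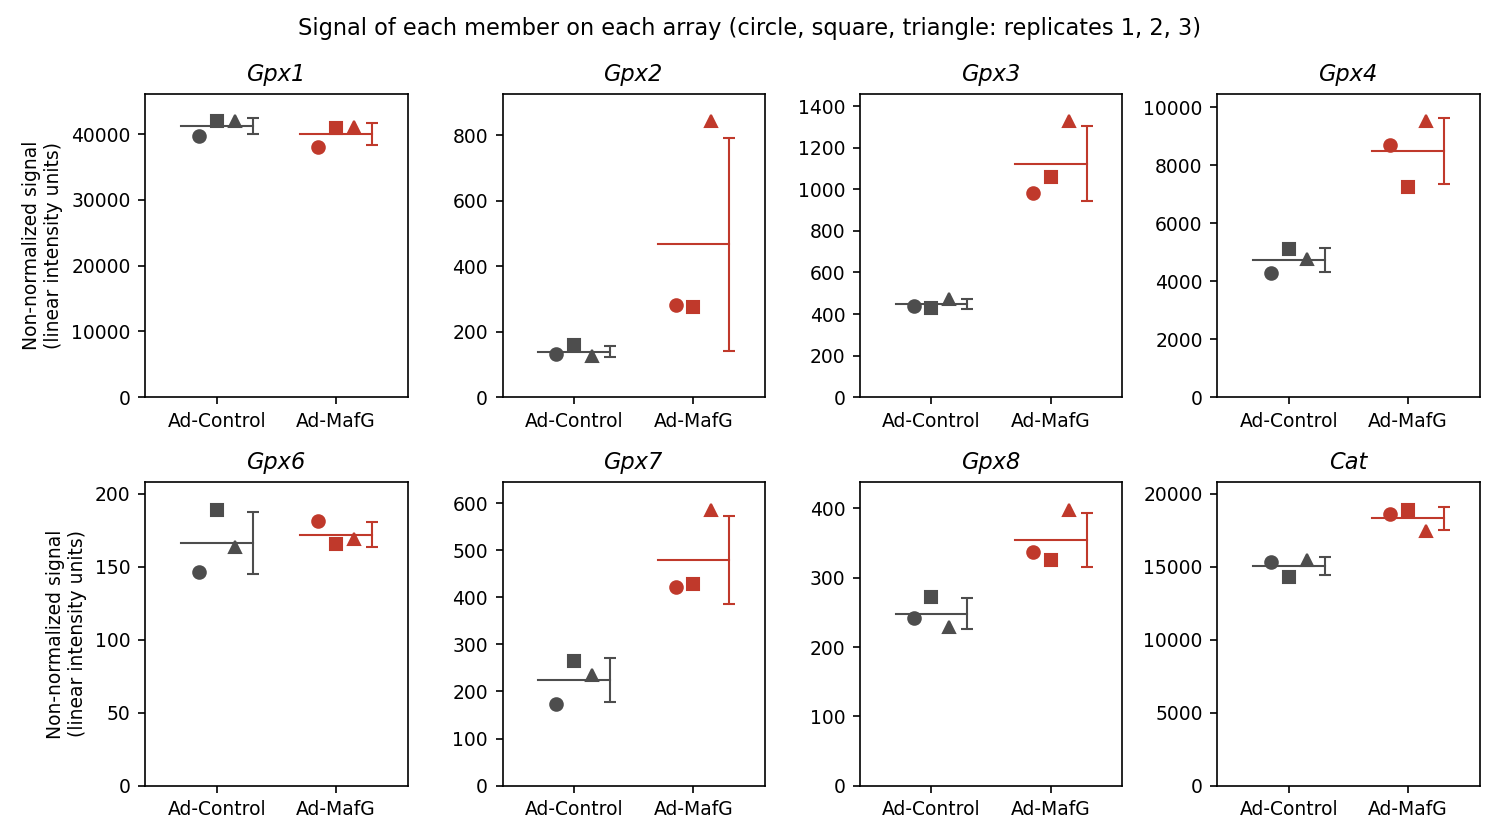
Non-normalized signal (linear intensity units, axes from 0) of the brightest probe of each gene on each of the 3 Ad-Control (grey) and 3 Ad-MafG (red) arrays, with horizontal lines at the group means and bars of 1 SD. The groups are apart for Gpx2, Gpx3, Gpx4, Gpx7, Gpx8 and Cat, and overlap for Gpx1 and Gpx6.

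Gpx1, the cytosolic and mitochondrial glutathione peroxidase of most cells, was among the brightest probes on every array. Its signal was 39750.8, 41957.8 and 41965.8 on the Ad-Control arrays and 38055.5, 40858.9 and 41046.3 on the Ad-MafG arrays. The groups overlapped, and their means of 41224.8 ± 1276.5 and 39986.9 ± 1675.3 (SD, n = 3 each) differed by less than the SD of either. The log2 fold change was −0.03 (SE 0.09). The Gpx1 signal stood at 90.4 to 97.0% of the brightest probe of its array and 1 to 9 probes were brighter. The tables carry no flag for saturated probes, and whether the signal was at its ceiling was not tested.

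The scaling decided how far Gpx1 stood below the controls. Its log2 fold change was −0.28 when arrays were scaled to their median, −0.30 on the values the authors had scaled and −0.39 when arrays were scaled to the median of the detected probes. It passed the threshold under none of these 3, nor under any of the other 10 alternatives or without any 1 array. In the authors' deposited table the mean Gpx1 signal was 44055.6 in Ad-Control and 35702.1 in Ad-MafG, with a difference score of −19.423. On the values the authors had scaled all 3 Ad-MafG arrays lay below all 3 controls, whereas the non-normalized groups overlapped.

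Gpx4, which reduces hydroperoxides of phospholipids within membranes, was higher in all 3 Ad-MafG livers. The brighter of its probes gave 4287.8, 5114 and 4777.7 on the Ad-Control arrays and 8708.2, 7268 and 9529.5 on the Ad-MafG arrays. The lowest Ad-MafG value lay above the highest control value. The group means were 4726.5 ± 415.5 and 8501.9 ± 1144.8 (SD, n = 3 each), and after normalization the log2 fold change was 0.70 (SE 0.12), or 1.62-fold. Under the 13 alternatives to the processing it lay between 0.51 and 0.84. The threshold was no longer passed when Ad-Control 1 was left out (0.68), nor when Ad-Control 3 (0.70), Ad-MafG 1 (0.69) or Ad-MafG 3 (0.61) was. The other Gpx4 probe was detected on 0 of 6 arrays, with signals from 148.1 to 166.3, and its values carry no difference. Alternative starts of Gpx4 give the cytosolic, mitochondrial and nuclear forms of the enzyme, and no source used here says which of them either probe reads.

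Gpx2, the glutathione peroxidase known best from the epithelium of the gut, went from undetected to detected. Its signal was 130.7, 157.8 and 126.7 on the Ad-Control arrays, none of them detected, and 281.2, 276.7 and 842.7 on the Ad-MafG arrays, all 3 detected. Ad-MafG 1 and 2 lay close together, and Ad-MafG 3 was far above them. The group means were 138.4 ± 16.9 and 466.9 ± 325.5 (SD, n = 3 each). The ratio of these means, which still hold the background, was 3.37. Because the controls are not above background they give only a bound. On the background-corrected and normalized scale, with each control array set to its lowest detected value on that scale, Gpx2 was at least 3.93-fold higher in Ad-MafG livers. On the same scale the bound was at least 2.33-fold without Ad-MafG 3, and over all single arrays left out it ran from 2.33 to 5.07. It holds for that background correction and is not a bound on the ratio of non-normalized signals.

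The fitted log2 fold change of Gpx2 was 2.87 (SE 0.57), a value that depends on how background was removed. It was 1.38 without background correction, 2.02 with an offset of 50 in place of 16, and 3.63 on the values the authors had scaled. In the authors' deposited table the mean was 9.4 in Ad-Control and 284.2 in Ad-MafG, with a difference score of only 2.693. The threshold was not passed when Ad-Control 1 was left out (2.89), nor when Ad-Control 3 (2.82) or Ad-MafG 1 (3.21) was. The direction of Gpx2 was the same in each of these refits. All refits kept the 8827 genes that passed the detection filter on the full set of arrays. Once an Ad-MafG array is left out, Gpx2 no longer meets that filter on the arrays that remain. Its refits without an Ad-MafG array therefore exist only because the filter was kept, and nothing is read from whether they passed.

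Gpx3, the glutathione peroxidase secreted into plasma, was higher in every Ad-MafG liver. Its signal was 439.2, 430.7 and 473.1 on the Ad-Control arrays and 983.1, 1060.7 and 1328 on the Ad-MafG arrays. The controls lay within a narrow range, and the lowest Ad-MafG array was above it by more than the SD of either group. The means were 447.7 ± 22.4 and 1123.9 ± 180.9 (SD, n = 3 each), and the log2 fold change was 1.27 (SE 0.18), or 2.40-fold. Of the 7 genes tested, Gpx3 alone passed the threshold under all 13 alternatives, at log2 fold changes of 1.03 to 1.37, and in all 6 refits with 1 array left out, at 1.12 to 1.39. In the authors' deposited table its mean was 342.8 in Ad-Control and 875.6 in Ad-MafG, with a difference score of 60.522, the highest of the set there. Blood plasma Gpx3 is known to come mainly from kidney, and the arrays measured liver RNA alone.

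Gpx7 and Gpx8 are peroxidases of the endoplasmic reticulum, which use hydrogen peroxide in the oxidative folding of proteins. Gpx7 gave 172.5, 265.3 and 235.5 on the Ad-Control arrays and 421.9, 428.3 and 586.1 on the Ad-MafG arrays. All 6 arrays detected it, and the groups did not overlap. Its means were 224.4 ± 47.4 and 478.8 ± 93.0 (SD, n = 3 each), with a log2 fold change of 1.51 (SE 0.32), or 2.84-fold. Without background correction the log2 fold change was 0.86. Leaving out Ad-Control 3 (1.69) or any of Ad-MafG 1 (1.63), Ad-MafG 2 (1.58) and Ad-MafG 3 (1.31) took it below the threshold. On the normalized scale Ad-Control 1 was the lowest control for Gpx7, well below the other controls, and without it the log2 fold change was 1.15.

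Gpx8 had 3 probes, and all 3 were detected on all 6 arrays. The brightest, which stands for the gene, gave 242.3, 272.8 and 229.1 on the Ad-Control arrays and 337.3, 326.1 and 398.2 on the Ad-MafG arrays. The other probes gave 225.1, 213.1 and 191.5 against 283.3, 285.7 and 290.4, and 203.1, 204.6 and 190.8 against 249.9, 265.5 and 264.5. On each of the 3 probes every Ad-MafG array lay above every control array. Their log2 fold changes were 0.47 (SE 0.14), 0.52 and 0.42, a similar size, and 0 of the 3 passed the threshold. With scaling of arrays to their median, at 0.61, or without correction or normalization, at 0.51, the brightest probe passed it.

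Gpx6, known in the mouse mainly from the olfactory epithelium, gave 146.6, 189.2 and 163.3 on the Ad-Control arrays and 181.7, 165.9 and 168.8 on the Ad-MafG arrays. It was detected on Ad-Control 2 and on none of the other 5 arrays, so no fold is given. Gpx5, an epididymal relative outside the set, was on the array with 2 probes and was detected on 0 of 6 arrays.

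Catalase was bright in all 6 livers. Its signal was 15295.6, 14318.4 and 15472 on the Ad-Control arrays and 18614.4, 18903.9 and 17434.2 on the Ad-MafG arrays. The groups did not overlap, with means of 15028.7 ± 621.4 and 18317.5 ± 778.5 (SD, n = 3 each). After quantile normalization the log2 fold change of Cat was 0.24 (SE 0.10), or 1.18-fold, and did not pass the threshold. It was 0.20 with cyclic loess, 0.05 with scaling of arrays to their median and 0.03 on the values the authors had scaled, and it turned to −0.062 with scaling to the median of the detected probes. Without correction or normalization it was 0.29, where the median of all genes was itself at 0.21. In the authors' deposited table its mean was 16041.3 in Ad-Control and 16293.7 in Ad-MafG, with a difference score of 0.148. Only with scaling to the median of the detected probes was Cat below 0, and by less than its SE of 0.14. The directions of Gpx2, Gpx3, Gpx4, Gpx7 and Gpx8 were the same under all 13 alternatives.

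**Figure D2:**
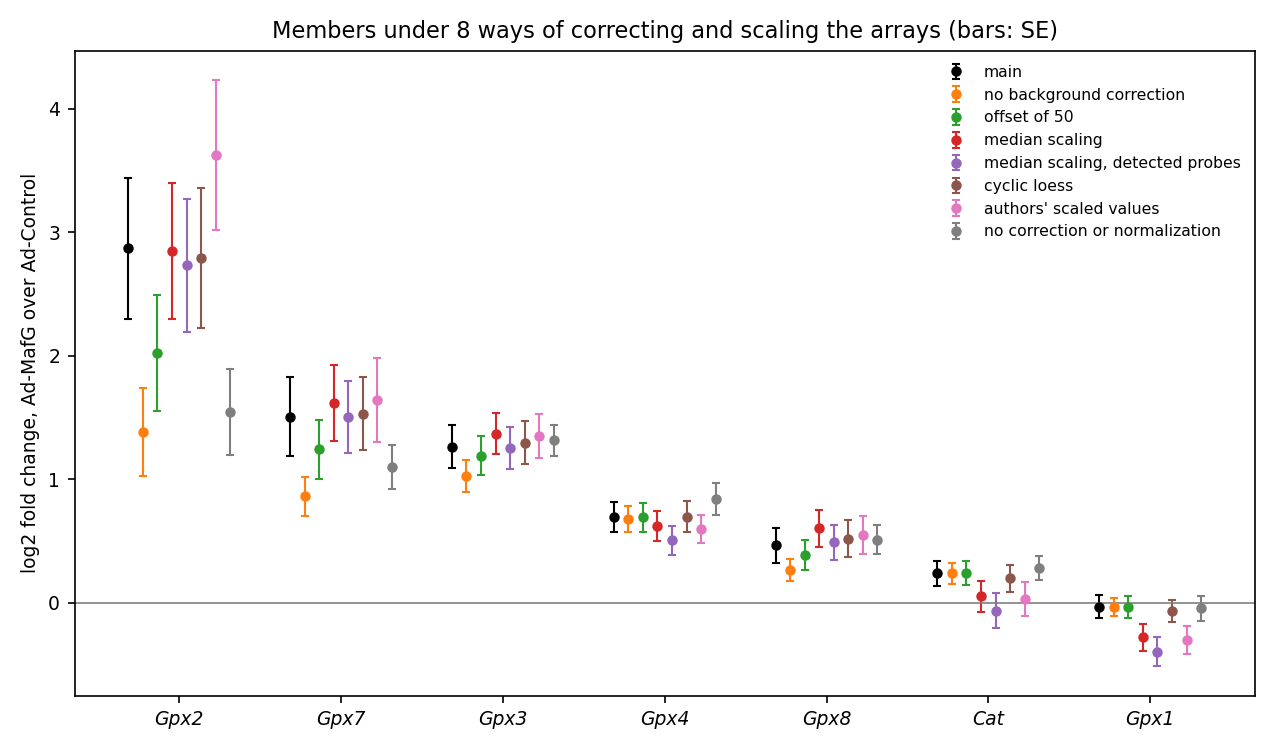
Log2 fold change of the 7 tested genes, Ad-MafG over Ad-Control, under 8 ways of correcting and scaling the arrays, with bars of 1 SE and a line at 0. Gpx2 moves the most, from 1.38 to 3.63, Gpx3 stays between 1.03 and 1.37, and Cat lies on both sides of 0, between −0.062 and 0.29.

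Among the Ad-MafG livers the same array was the highest for most of these genes, and the order of the others differed between genes. Ad-MafG 3 was the highest Ad-MafG array on the normalized scale for Gpx1, Gpx2, Gpx3, Gpx4, Gpx7 and Gpx8, and the lowest for Cat. For Gpx2 its normalized log2 value was 9.27, against 7.03 on each of Ad-MafG 1 and 2 and 4.73 to 5.13 on the controls. The SD of Gpx2 among Ad-MafG arrays was 1.29 on that scale, against 0.25 for Gpx3 and 0.20 for Gpx4. For Gpx7 the wider group was Ad-Control, with an SD of 0.62 against 0.35.

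**Figure D3:**
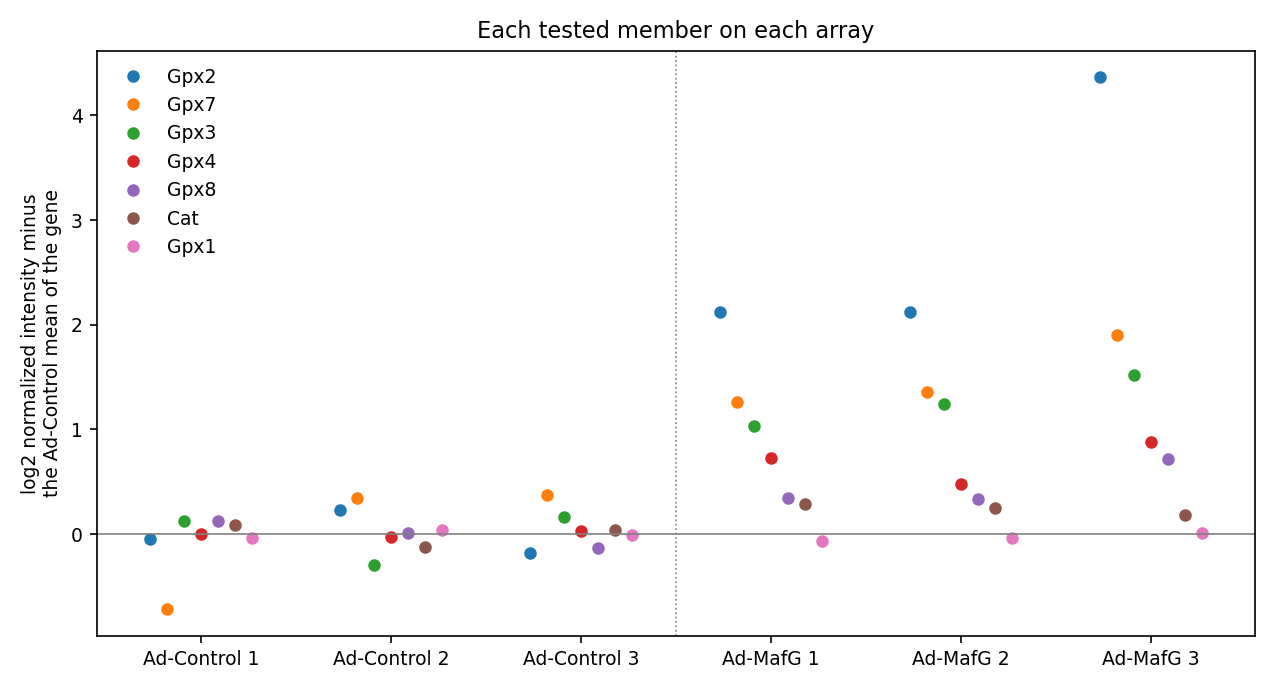
Log2 normalized intensity of the 7 tested genes on each of the 6 arrays, as the difference from the gene's Ad-Control mean, with 1 point per gene and array and a dotted line between the groups. Gpx2 on Ad-MafG 3 stands far above every other point, Gpx7 is lowest on Ad-Control 1, and Gpx1 stays near 0 on all 6 arrays.

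Whole liver holds several cell types, and in such RNA fewer cells of a type and less RNA per cell cannot be told apart. Over all genes tested, 47.2% had a log2 fold change above 0, 6.29% passed the threshold as higher and 3.63% as lower. Of 9 tested markers of macrophages and Kupffer cells 5 rose (Adgre1, C1qa, C1qb, C1qc and Cd14) and 0 fell, and 7 of 9 had a log2 fold change above 0. Of those that did not pass, the markers of resident Kupffer cells Timd4 and Marco were at −1.48 and −1.06, and Clec4f and Vsig4 at 0.27 and 0.24. Timd4 was detected on only 1 Ad-MafG array, with an SD of 1.72 in that group and an SE of 0.78. The size of its change is therefore hard to read. The summed normalized intensity of the 9 was 11862 to 15370 in the controls and 23388 to 26204 in Ad-MafG livers. Of 9 markers of stellate cells and fibroblasts 4 rose (Col1a1, Col1a2, Col3a1 and Lum), with sums of 11494 to 12323 and 12925 to 15738. Col1a2 was detected on no Ad-Control array, so it entered the test only through the Ad-MafG arrays. Acta2 at 0.61, Lrat at 0.31, Pdgfrb at 0.28, Dcn at 0.17 and Des at −0.13 did not pass. None of the 8 hepatocyte markers passed the threshold and 0 of 8 had a log2 fold change above 0, with sums of 164912 to 173277 and 151448 to 163658. The probes for Alb and Tat lay low, at control means of 6.70 and 6.42 against lowest detected log2 values of 5.73 to 5.89. Those for Ahsg, Apoa1 and Ttr lay near the top of the scale, at 15.14, 15.21 and 15.19. Changes are hard to read at either end of the scale. For sinusoidal endothelium 0 of 7 passed, with sums of 11661 to 13091 and 13591 to 15682, and Kdr was undetected. For neutrophils 0 of 3 passed, with sums of 765 to 1314 and 1280 to 1448, and Mpo, Elane and Ngp were undetected. For T and B cells 0 of 3 passed, with sums of 478 to 1108 and 897 to 915, and Cd8a and Cd79a were undetected. For cholangiocytes 0 of 2 passed, with sums of 167 to 243 and 151 to 199, and Krt19 and Cftr were undetected. For erythroid cells 1 of 2, Alas2, fell, with sums of 11015 to 16176 and 13256 to 18748, and Epb42 and Rhd were undetected. Each sum was of linear normalized intensity less the offset of 16, over every listed marker on the array, tested or not. It ran over 8 markers for sinusoidal endothelium, 7 for neutrophils and 6 for T and B cells. For cholangiocytes and erythroid cells it ran over 5 each. The undetected ones add values near background to the small sums. The part of these cell types in the values of Gpx2, Gpx3, Gpx4, Gpx7 and Gpx8 was not tested.

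Genes that make or spend the substrates of these enzymes are described next, in lists written with earlier results of these data known. In each list the count past the threshold stands beside the 6.29% of all genes that passed it as higher and the 3.63% as lower, and the list's median log2 fold change beside −0.02 for all genes. Counts of an unadjusted p under 0.05 (limma) stand beside 2631 of all 8827 genes. Of the 11 list genes that passed the threshold, 6 rose and 5 fell. This split changed with the scaling. It was 3 higher and 6 lower on the values the authors had scaled, 8 and 6 with scaling to the median, 5 and 11 with scaling to the median of the detected probes, and 18 and 0 without correction or normalization. Left-out arrays moved this count of 11 widely, to 2, 13 and 2 without Ad-Control 1, 2 and 3, and to 1, 7 and 3 without Ad-MafG 1, 2 and 3. Gclc passed in all 6 of these refits and Acsl4 in 5, all but the one without Ad-MafG 1. The other 9 list genes named as rising or falling passed in at most 3 of the 6.

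Of 3 tested genes that supply reduced glutathione, the substrate of most of these peroxidases, 1 rose. Gclc, whose product catalyses the rate-limiting step of glutathione synthesis, rose by 1.46 on the log2 scale (SE 0.21, adjusted p = 0.0123 by limma). Its modifier subunit Gclm was at 0.36 and glutathione synthetase, Gss, at 0.60, neither past the threshold, and the list median was 0.60. Glutathione reductase, Gsr, and the cystine carrier gene Slc7a11 did not enter the test. Of 5 tested peroxiredoxins and sulfiredoxin, the other thiol peroxidases and the enzyme that reactivates them, 1 rose, with a list median of 0.28. Srxn1, sulfiredoxin, rose by 1.41 (SE 0.34, adjusted p = 0.046 by limma). It passed under 9 of the 13 alternatives, and not on the values the authors had scaled, without the detection filter or with the trended and robust variance model, among others. Prdx3 at 0.37, Prdx4 at 0.28 and Prdx1 at 0.25 did not pass the threshold.

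The other selenoproteins and the factors that put selenocysteine into them did not move in 1 direction. Of 16 tested selenoprotein genes outside the glutathione peroxidases 2 rose and 2 fell, with a median log2 fold change of −0.14. Selenoh, a nuclear selenoprotein, rose by 0.70 and Selenon, of the endoplasmic reticulum, by 0.60. Selenoo, a mitochondrial selenoprotein, was at −0.57 and Txnrd3, a thioredoxin reductase, at −0.51, and both fell past the threshold. Txnrd3 passed under 6 of the 13 alternatives and in 0 of the 6 refits with 1 array left out, with −0.39 under median scaling, −0.24 without background correction and −0.034 without correction or normalization. Under the last, Selenoo was at −0.24 and did not pass either, and Selenon missed the threshold on the values the authors had scaled, at 0.70, and without the detection filter. Selenop, the selenium carrier that liver secretes, was at −0.17 and did not pass it. Of 6 tested genes of selenocysteine synthesis and insertion 0 passed, 0 of 6 also had an unadjusted p under 0.05, and the median was −0.22. Among them were Sepsecs, which makes selenocysteine on its transfer RNA, at −0.29, Eefsec, its elongation factor, at −0.28, Secisbp2, which binds the insertion element, at −0.22 and Scly, which recovers selenium from selenocysteine, at −0.22.

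Enzymes that make hydrogen peroxide for catalase and these peroxidases gave mixed values. Of 4 superoxide dismutase genes, counting their copper chaperone Ccs, 0 passed the threshold. An unadjusted p under 0.05 was found for 1 of the 4, beside 2631 of all 8827 genes. The log2 fold changes were −0.03 for Sod1, −0.09 for Sod2, 0.44 for the secreted Sod3 and −0.29 for Ccs. Of 6 tested peroxisomal oxidases, which feed catalase, Acox2, the oxidase of branched acyl chains and bile acid intermediates, rose by 0.49, and Ddo, D-aspartate oxidase, fell by 0.83 on the log2 scale. Acox2 did not pass with scaling to the median, at 0.37, on the values the authors had scaled, at 0.35, or with scaling to the median of the detected probes, at 0.26. Ddo did not pass without the detection filter, nor without correction or normalization, at −0.34. Acox3 at −0.49 and urate oxidase, Uox, at −0.42 did not pass the threshold, and the list median was −0.36. Of 12 tested peroxins, which build the peroxisome, 0 rose and 2 fell, with a median of −0.01. Pex26, which anchors the peroxin motor to the membrane, fell by 0.70 (adjusted p = 0.0171 by limma) and Pex6, part of that motor, by 0.39. Without correction or normalization they were at −0.19 and −0.17 and did not pass. Pex3 at 0.16 and Pex7 at 0.17 did not pass.

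Of 4 tested NADPH oxidase subunits 0 passed the threshold. An unadjusted p under 0.05 was found for 3 of the 4, beside 2631 of all 8827 genes. Cyba was at 0.90, Ncf4 at 0.64 and Ncf1 at 0.39, subunits of the phagocyte oxidase, and Nox4 was at −0.94. Ncf1 was detected on only 1 Ad-Control array, with an SE of 0.33, so the size of its change is hard to read. Of 8 tested genes that form lipid peroxides or act against them beside Gpx4, 1 rose. Acsl4, which loads polyunsaturated fatty acids for phospholipids, rose by 0.96 (SE 0.14, adjusted p = 0.0143 by limma). Alox5ap at 0.63, Aifm2, which regenerates a lipid antioxidant, at 0.33 and Dhodh at −0.16 did not pass, and the list median was 0.05.

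**Figure D4:**
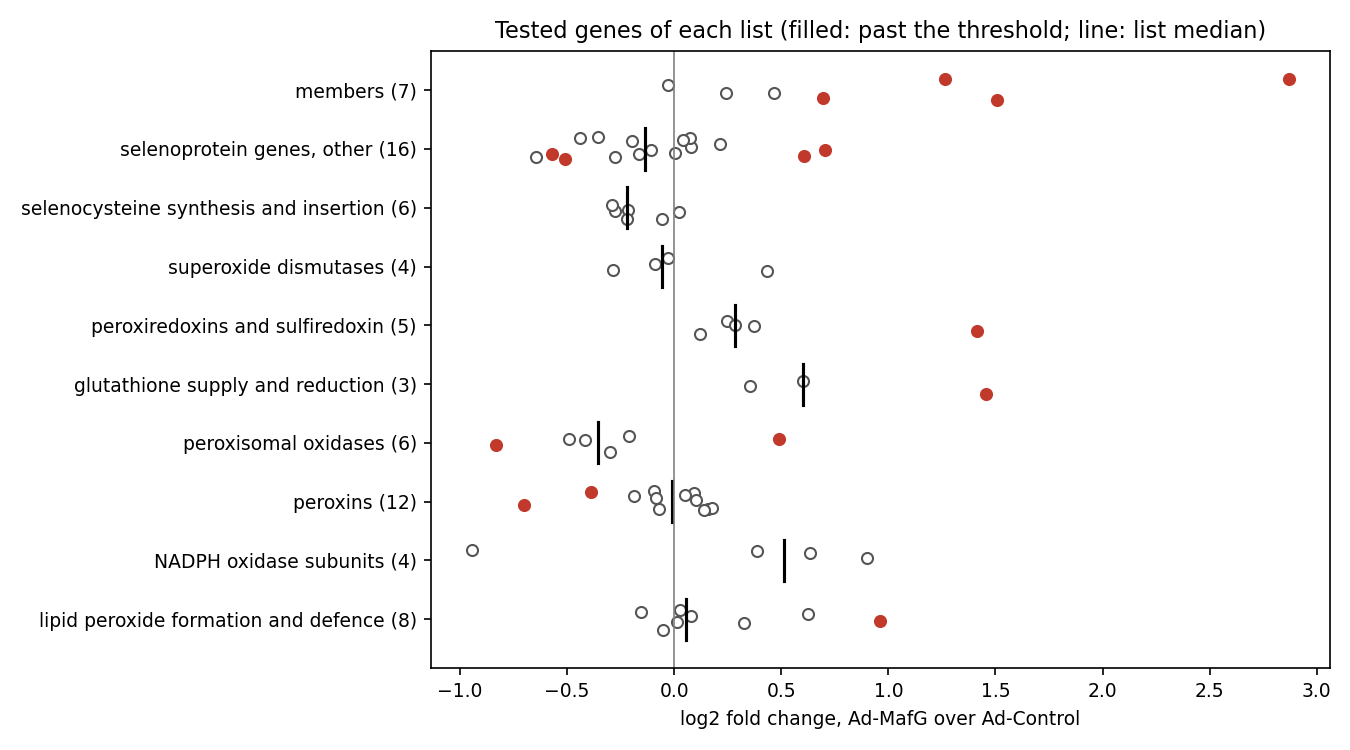
Log2 fold change, Ad-MafG over Ad-Control, of each tested gene of the set and of 9 lists of related genes, with the number tested in brackets, filled points past the threshold (adjusted p under 0.05, limma) and a black line at each list's median. Gclc at 1.46 and Srxn1 at 1.41 lie at the right end of the lists, and the peroxisomal oxidases have the lowest median, −0.36.

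The genes whose pattern over the 6 arrays was most like that of Gpx2 and of Gpx1, which had the highest and the lowest fitted log2 fold change, were taken by Pearson correlation of normalized log2 intensity among all tested genes. That order only picked the genes, since the Gpx2 controls were undetected and Gpx1 was near the top of the scale. For Gpx2 these were Frrs1 (r = 0.999), Dnaja3 (0.998), Slc39a4 (0.996), Hmox1 (0.994) and Sumo3 (0.994), and 205 genes had an r above 0.95. The log2 fold changes of Frrs1, Slc39a4 and Hmox1, the heme oxygenase, were 0.80, 0.84 and 0.84, and those of Sumo3 and Dnaja3 0.47 and 0.19. For Gpx1 they were Alg2 (0.982), Eapp (0.966), Vac14 (0.957), Xrn2 (0.949) and Asns (0.949), and 3 genes had an r above 0.95. In each of these 5 the groups overlapped, as they did for Gpx1. These correlations over 6 arrays in 2 groups describe likeness of pattern and carry no test.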

How the data were processed

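Total RNA of 6 whole livers, 3 per group and each from 1 mouse, was extracted with QIAzol and RNeasy columns and labelled as biotin cRNA, per the labels' protocols. The deposited table holds non-normalized mean bead intensity per probe and a detection p-value, per the file headers. A further deposited table holds intensity after the authors' background subtraction and scaling, and each of its columns is linear in the non-normalized signal of that array, with a slope of 0.872 to 1.195. The authors' deposited table of group means also holds a signed difference score, per the file headers, for which no source used here gives the error model. No scaling method or scanner software is named in the sources used here.

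Signals were background-corrected (normexp, parameters inferred from detection p-values, offset 16), quantile normalized and log2-transformed in limma 3.58.1 (R 4.3.3). Probes detected (p under 0.05) on at least 3 of 6 arrays were kept, and the brightest probe stood for each gene. Groups were compared with lmFit and eBayes, two-sided, without covariates, and p-values were adjusted by Benjamini-Hochberg over 8827 genes (threshold 0.05). The fit was run on simulated data of independent normal noise with known changes added. That run held no background, normalization or detection step, so it does not test those. The platform annotation gave 23978 probes 1 symbol, 0 several and 1719 none. With 6 arrays their number limits the precision. A p-value here measures the spread between mice of 1 experiment. The SD in the text is over the 3 arrays of a group, and the SE is that of the limma fit.

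The members and lists were chosen with earlier results of these data known. Named were all members with all probes, in each list every gene past the threshold and, where fewer than 4 passed, those with the smallest unadjusted p up to 4, the 5 genes most correlated with the highest and lowest member, and Mafg. Gpx5, Selenop, Gsr and Slc7a11 and the markers were named outside this rule. A bound ("at least") sets each undetected array to its lowest detected signal, or to the probe itself if that is brighter. Alternatives were other background corrections, scalings, filters and variance models, all probes, the replicate block and each array left out. Refits with an array left out kept the 8827 genes that passed the detection filter on the full set of arrays. The median over detected probes and the signal with no normalization were added after the data were seen. List genes not on the array or under the filter were not analysed here. The columns of the arrays shared no identical values, and same-numbered mice did not deviate together (correlations of 0.035, −0.138 and −0.125).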

Additional observations from a re-analysis of the deposited data

How the results depend on the processing

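Gpx3 kept its direction and stayed past the threshold under all 13 alternatives and without any 1 array. The genes past the threshold numbered 875 and moved to 1322 without background correction, 1319 with a trended and robust variance model, 2328 without correction or normalization and 141 with the replicate block, and ranged from 191 to 1166 with 1 array left out. The members past it numbered 4, 2 with the replicate block, and 1 to 4 with 1 array left out. The list genes past it numbered 11, and 21 without background correction, 17 with an offset of 50, 7 without the detection filter, 22 with the trended and robust model, 18 without correction or normalization, 2 with the replicate block and 1 to 13 with 1 array left out. The replicate block left Gpx2 at 2.87 and Gpx4 at 0.70 on the log2 scale, no longer past the threshold, and the fit has fewer residual degrees of freedom. The mice share only a number, so this is no pairing. Gpx7 at 1.51 lost its call without the detection filter. With 1 array left out the log2 fold changes ran from 2.09 to 3.23 for Gpx2, 0.61 to 0.81 for Gpx4 and 1.15 to 1.69 for Gpx7. Gpx2 was kept in these refits, although it would not meet the detection filter once an Ad-MafG array was left out. Gpx8 passed at 0.61 with median scaling and at 0.51 without correction or normalization. With the median of detected probes Cat was at −0.062 (SE 0.14), below 0 by less than its SE. Except where said, the cause was not tested. Signals of Gpx2, Gpx6, Gpx7 and Gpx8 near the lowest detected signal (164.4 to 186.4) limit the size of their folds.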
